A study of Mus musculus with 20 samples.

Results

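The genes described are 10 genes of the integrated stress response: Atf4, Atf3, Ddit3, Trib3, Ppp1r15a, Sesn2, Asns, Psat1, Phgdh and Hspa5. The list was chosen by the known roles of its genes, with the measured level of Atf3, higher in HFD than in NC mice, already in view. All 10 were among the 14776 genes of the deposited table and all 10 passed the filter on low values. The values are FPKM, fragments scaled to the length of the gene and the size of the library, from RNA sequencing of eWAT, the white fat beside the epididymis, in 20 C57BL/6J males.

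Mice of every group were 6 weeks old at the start. The NC group held 6 mice on maintenance feed. The HFD group held 7 mice on feed with 60% of its energy from fat, given from 6 weeks of age for 20 weeks, with saline into the stomach over the last 6. The SZ-A group held 7 mice on the same high-fat feed that received 400 mg per kg each day of Ramulus Mori (Sangzhi) alkaloids, an extract of mulberry twig, over those 6 weeks. The mice were fasted overnight before death. Each sample is whole tissue, in which a change in the number of cells of a type and a change in RNA per cell cannot be told apart.

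In the integrated stress response, kinases that sense stress in the endoplasmic reticulum, shortage of amino acids, missing haem or double-stranded RNA phosphorylate the translation factor eIF2. General translation slows, while the messenger RNA of the transcription factor ATF4 is translated more. ATF4 then raises transcription of amino acid enzymes, transporters and further regulators, among them ATF3, CHOP (the product of Ddit3) and GADD34 (the product of Ppp1r15a), which helps to remove the phosphate from eIF2. Because ATF4 is controlled largely at translation, its messenger RNA is not a direct measure of its activity. In obese fat, cells of the adipose stroma, macrophages included, are present beside adipocytes and can express the same genes.

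The depth was 13567667 to 19388628 reads per mouse on the deposited genes, recovered from the FPKM. NC replicate 6 and SZ-A replicate 5 stood apart, and results that rest on them are given with and without them. The first had a median correlation of 0.697 with the other mice, where the other 19 mice had 0.853 or more. Adipoq, which encodes the adipocyte hormone adiponectin, was at 26.6 FPKM in it against an NC median of 1482, so that its adipocyte signal was low for a library labelled eWAT. This library also had the highest level of the epididymis marker Spint2 in the NC group (239 FPKM). The second had 11.6% of its reads on mitochondrial genes, where the other SZ-A mice had 1.67% to 5.11%. It also had the highest summed macrophage markers (4773 FPKM) and red cell markers (9439 FPKM) of its group.

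Of the 10 members, 4 carried a known stress element in the 250 bases before a RefSeq start site, and these windows are shown as a description. The sequences are those of RefSeq for GRCm38.p6, with all 10 members matched, and the capitals mark the element. The composite element bound by ATF4 with C/EBP proteins, searched as TGATGNAA on both strands, was found in Atf3 and Asns. The cyclic AMP response element, searched as TGACGTCA, was found in Ppp1r15a. The ER stress response element, searched as CCAAT and, 9 bases further on, CCACG, was found in Hspa5.
Atf3, chr1:191183411-191183468, minus strand, element on the reverse complement: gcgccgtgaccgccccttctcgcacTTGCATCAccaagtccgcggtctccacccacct
Asns, chr6:7693210-7693257, minus strand: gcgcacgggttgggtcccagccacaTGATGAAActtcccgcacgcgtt
Ppp1r15a, chr7:45526269-45526305, minus strand: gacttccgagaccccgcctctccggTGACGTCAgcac
Hspa5, chr2:34772000-34772068, plus strand: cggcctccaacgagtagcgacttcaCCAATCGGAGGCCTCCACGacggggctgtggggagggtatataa

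The elements lay 110 to 103 bases before the RefSeq start in Atf3, 23 to 16 in Asns, 12 to 5 in Ppp1r15a and 65 to 47 in Hspa5. Among all 32851 promoter windows of the table, 3.45% held the composite element, 1.55% the cyclic AMP response element and 0.113% the ER stress response element. The elements of Atf3, Asns and Hspa5 lie inside the span that GENCODE gives the gene, which starts further upstream than the RefSeq start used. A match of letters is a description and does not show binding. Atf3 and Asns, which share the composite element, lay on opposite sides of NC in HFD mice. A relation of the elements to the levels was not tested.

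Among the regulators, Atf3 stood apart. It encodes a transcription factor of the ATF/CREB family that dimerises with AP-1 proteins (ENSMUSG00000026628, chr1:191170296-191218039, minus strand, here and below in GENCODE M21 for GRCm38). In NC mice its level ran from 1.96 to 6.01 FPKM with a median of 2.86, in HFD mice from 97.1 to 220 with a median of 138, and in SZ-A mice from 23.7 to 194 with a median of 41.7. Every HFD and SZ-A mouse was above every NC mouse. The values rest on 68 to 208 reads in NC and on at least 897 in each mouse fed high fat. By mean level Atf3 was the lowest of the 10 members in NC, the second highest in HFD after Hspa5, and the fourth in SZ-A.

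**Figure D1:**
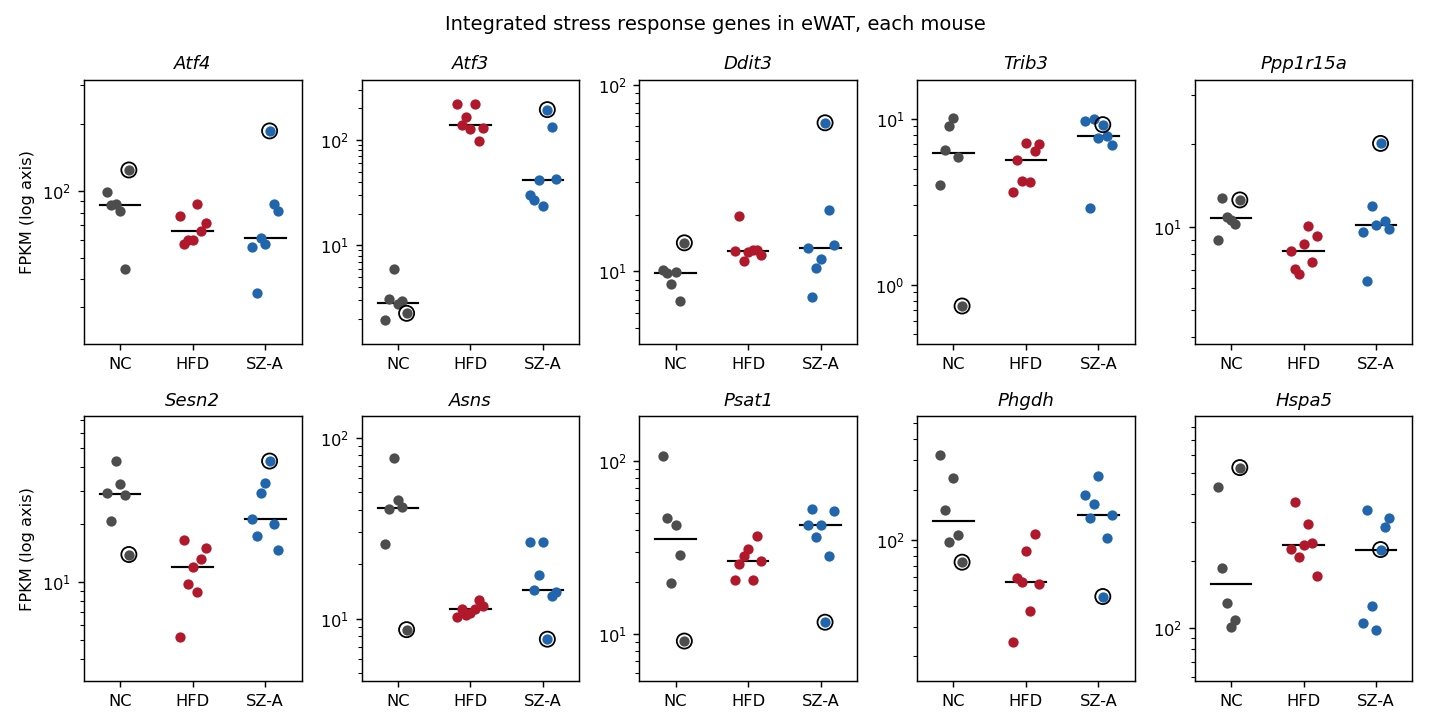
FPKM of the 10 members on log axes, 1 point per mouse, with a bar at the group median for 6 NC, 7 HFD and 7 SZ-A mice; circles mark NC replicate 6 and SZ-A replicate 5. Atf3 is at 1.96 to 6.01 FPKM in NC and at 23.7 or more in every mouse fed high fat, while the groups overlap for each of the other 9 genes. For Asns and Sesn2 the overlap of NC with HFD comes from NC replicate 6 alone.

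The mean of Atf3 was 3.17 ± 1.46 FPKM (SD, n = 6) in the NC mice, 156 ± 47.2 (SD, n = 7) in the HFD mice and 70.2 ± 66.3 (SD, n = 7) in the SZ-A mice. Atf3 was lower with SZ-A than on HFD alone, at a log2 fold change of -1.54 (standard error (SE) 0.42, limma adjusted p = 0.018 on the log2(FPKM + 1) scale). The 95% interval ran from -2.44 to -0.64, and an exact two-sided permutation test of this single gene gave an unadjusted p of 0.0122. In SZ-A mice 5 of 7 values were below every HFD value. The other 2, replicates 5 and 6 at 194 and 132 FPKM, lay within the HFD range. Without SZ-A replicate 5 the log2 fold change was -1.86 (limma adjusted p = 0.0017).

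Atf3 was still higher in SZ-A than in NC mice, by a log2 fold change of 3.70 (SE 0.46, limma adjusted p = 6.4e-04), and all 7 SZ-A mice were above all 6 NC mice. The exact permutation test gave 0.00117, the smallest p that 7 mice against 6 allow. Without NC replicate 6 the log2 fold change was 3.64. Over all genes in this comparison 3.57% had groups that did not overlap, 3.22% with SZ-A higher. The comparisons share mice, so the HFD level enters one of them and the NC level the other. Atf3 was in view for its high HFD and low NC level when the list was chosen. That choice favours a fall from HFD to SZ-A and a higher level in SZ-A than in NC. The p-values of Atf3 in these comparisons make no allowance for it.

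Atf4 (ENSMUSG00000042406, chr15:80255184-80257541, plus strand) encodes the central transcription factor of the response. Its level was 44.4 to 124 FPKM in the NC mice (median 86.6), 57.9 to 87.2 in the HFD mice (median 66.1) and 34.7 to 186 in the SZ-A mice (median 61.3). The groups overlapped throughout. The log2 fold change of SZ-A against HFD was 0.07 (SE 0.27, 95% interval -0.51 to 0.64, limma adjusted p = 0.88), and without SZ-A replicate 5, the mouse at 186, it was -0.16.

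Ddit3 (ENSMUSG00000025408, chr10:127290774-127296288, plus strand) encodes CHOP, a factor of the C/EBP family that acts late in sustained stress. It ran from 6.93 to 14.2 FPKM in the NC mice (median 9.85), from 11.3 to 19.7 in the HFD mice (median 12.9) and from 7.26 to 62.4 in the SZ-A mice (median 13.4). SZ-A replicate 5 was at 62.4 and the next SZ-A mouse at 21.2. SZ-A against HFD gave a log2 fold change of 0.22 (SE 0.34, 95% interval -0.50 to 0.93, limma adjusted p = 0.67), which was -0.11 without that mouse. The exons of Ddit3 share 105 of 1713 bases with a further gene model of the same name on the same strand and 68 with Mars on the other strand, so its value carries some uncertainty.

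Trib3 (ENSMUSG00000032715, chr2:152337422-152344032, minus strand) encodes a pseudokinase induced by ATF4 and CHOP. It was low in every group, at 0.743 to 10.1 FPKM in the NC mice (median 6.19), 3.63 to 7.10 in the HFD mice (median 5.62) and 2.91 to 9.95 in the SZ-A mice (median 7.87). The lowest NC value, from 23 reads, was in NC replicate 6. The log2 fold change of SZ-A against HFD was 0.40 (SE 0.22, limma adjusted p = 0.18), and 5 of 7 SZ-A mice were above every HFD mouse. Without SZ-A replicate 2, at 2.91 FPKM, the log2 fold change was 0.59 with an adjusted p of 0.013 from limma. That was the 1 fit in which Trib3 passed, of the 14 that left out a mouse.

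Ppp1r15a (ENSMUSG00000040435, chr7:45522916-45526268, minus strand) encodes the feedback subunit that returns eIF2 to its active form. It was at 8.97 to 12.7 FPKM in the NC mice (median 10.7), 6.77 to 10.1 in the HFD mice (median 8.18) and 6.40 to 20.1 in the SZ-A mice (median 10.2). The log2 fold change of SZ-A against HFD was 0.35 (SE 0.18, limma adjusted p = 0.15). Without SZ-A replicate 2 it was 0.46 (limma adjusted p = 0.042), and without SZ-A replicate 5 it was 0.21 (limma adjusted p = 0.22). Ppp1r15a passed in 1 of the 14 fits that left out a mouse.

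Of the 10 members, 7 had a lower median in HFD than in NC mice, all but Atf3, Ddit3 and Hspa5. Sesn2 (ENSMUSG00000028893, chr4:132492032-132510501, minus strand) encodes a stress-induced protein that restrains mTORC1 when leucine is short. Its level ran from 14.0 to 42.9 FPKM in the NC mice (median 28.9), from 5.23 to 16.6 in the HFD mice (median 12.1) and from 14.8 to 42.7 in the SZ-A mice (median 21.3). The HFD mice were the low group, and only NC replicate 6 of the NC mice and replicate 7 of the SZ-A mice were under the highest HFD value. Sesn2 was higher with SZ-A than on HFD alone, at a log2 fold change of 1.06 (SE 0.25, 95% interval 0.522 to 1.602, limma adjusted p = 0.0089), with 6 of 7 SZ-A mice above every HFD mouse. The exact permutation test gave an unadjusted p of 0.0017. SZ-A and NC did not differ beyond their spread (log2 fold change -0.14, 95% interval -0.74 to 0.46).

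Phgdh (ENSMUSG00000053398, chr3:98313170-98339990, minus strand) encodes the first enzyme of serine synthesis from a glycolytic intermediate. It was at 73.3 to 323 FPKM in the NC mice (median 129), 24.2 to 108 in the HFD mice (median 55.7) and 45.6 to 242 in the SZ-A mice (median 140). It was higher with SZ-A than on HFD alone, at a log2 fold change of 1.24 (SE 0.36, 95% interval 0.478 to 1.998, limma adjusted p = 0.022; exact permutation p = 0.0105, unadjusted). In SZ-A mice 5 of 7 were above every HFD mouse, and replicate 5 was the lowest. Without HFD replicate 5 the adjusted p from limma was 0.052, and without SZ-A replicate 5 the log2 fold change was 1.49 (limma adjusted p = 0.0028). Against NC the log2 fold change of SZ-A was -0.13 (95% interval -1.01 to 0.74).

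Psat1 (ENSMUSG00000024640, chr19:15904678-15947337, minus strand) encodes the next enzyme of the same pathway. Its level was 9.15 to 107 FPKM in the NC mice (median 35.7), 20.5 to 37.2 in the HFD mice (median 26.5) and 11.8 to 53.3 in the SZ-A mice (median 42.6). SZ-A against HFD gave a log2 fold change of 0.38 (SE 0.27, limma adjusted p = 0.32). SZ-A replicate 5, the mouse at 11.8, decided the call. Without it the log2 fold change was 0.63 (limma adjusted p = 0.013), and the 6 mice left were at 28.3 to 53.3 FPKM. Psat1 passed in 1 of the 14 fits that left out a mouse.

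Asns (ENSMUSG00000029752, chr6:7675169-7693254, minus strand) encodes asparagine synthetase, a classical target of ATF4 under amino acid shortage. It ran from 8.71 to 77.1 FPKM in the NC mice (median 41.0), from 10.2 to 12.6 in the HFD mice (median 11.3) and from 7.71 to 26.5 in the SZ-A mice (median 14.4). The HFD mice were tightly grouped, with a mean of 11.2 ± 0.813 FPKM (SD, n = 7). In SZ-A mice 6 of 7 were above every HFD mouse and replicate 5 was below every one of them. The log2 fold change of SZ-A against HFD was 0.48 (SE 0.21, limma adjusted p = 0.11), and without SZ-A replicate 5 it was 0.64 (limma adjusted p = 0.0093). Of the 14 fits that left out a mouse, Asns passed in that 1.

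Asns was the member whose SZ-A level lay furthest below NC. The log2 fold change was -1.02 (SE 0.41, limma adjusted p = 0.19; exact permutation p = 0.0513, unadjusted). NC replicate 6 was at 8.71 FPKM, while the other NC mice were at 25.8 to 77.1. Without that library the log2 fold change was -1.39 (limma adjusted p = 0.017). Asns passed in 1 of the 13 fits of this comparison that left out a mouse. In this comparison the members other than Atf3 and Asns had limma adjusted p of 0.38 or more.

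Hspa5 (ENSMUSG00000026864, chr2:34771970-34777547, plus strand) encodes BiP, the main chaperone of the endoplasmic reticulum, which is driven by the unfolded protein response more than by ATF4. It had the highest mean level of the 10 in each group. It ran from 100.2 to 527 FPKM in the NC mice (median 157), from 172 to 369 in the HFD mice (median 236) and from 97.9 to 340 in the SZ-A mice (median 225). The spread within NC and SZ-A exceeded the difference between groups, and SZ-A against HFD gave a log2 fold change of -0.35 (SE 0.30, 95% interval -0.99 to 0.28, limma adjusted p = 0.40).

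Counted over the 10 members, SZ-A against HFD gave 3 with an adjusted p under 0.05 from limma (Atf3 lower, Sesn2 and Phgdh higher), where 22.8% of all 14695 genes tested passed. The share of the members, 3 of 10, is near that background and is no result about the list. At the threshold of the study's methods, with a log2 fold change above 1.5 in addition, Atf3 alone passed, where 0.864% of all genes did. Atf3 was the member in view when the list was chosen, so its passes here and against NC are a description. None of the 10 had groups without overlap, which over all genes were 6.08%, with 2.07% higher and 4.01% lower. The median log2 fold change of the members was 0.37, against 0.03 over all genes. The count was 5 without SZ-A replicate 5, where 4296 of 14690 genes passed. It was also 5 without SZ-A replicate 2, where 3871 of 14677 did. In the main fit 3349 of the 14695 genes passed, so the background rose as well. SZ-A against NC gave 1 of 10 (Atf3, higher), where 4.61% of genes passed, 4.15% higher, and 1.79% with the added fold limit, and a median of -0.04 against -0.0012 over all genes.

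HFD against NC is the comparison in which the members were chosen, and its values are a description. The log2 fold change was 5.24 (SE 0.23) for Atf3, 0.42 (SE 0.16) for Ddit3, 0.30 (SE 0.39) for Hspa5 and 0.06 (SE 0.36) for Trib3. It was -0.28 (SE 0.41) for Psat1, -0.29 (SE 0.20) for Atf4 and -0.38 (SE 0.12) for Ppp1r15a. The lowest were -1.20 (SE 0.27) for Sesn2, -1.37 (SE 0.39) for Phgdh and -1.497 (SE 0.35) for Asns. Without NC replicate 6 Psat1 was at -0.62, Trib3 at -0.30, Hspa5 at 0.58 and Asns at -1.86. Without NC replicate 1 Psat1 was at 0.058, on the other side of 0. Of the 10, 6 were past the limit of adjusted p under 0.05, 2 of them higher and 4 lower, where 41.1% of all genes were past it. Ddit3 was past it in 2 of the 13 fits that left out a mouse. With the added fold limit Atf3 was past it, as were 7.97% of all genes. Atf3 was also the member whose groups did not overlap, as did not those of 20.5% of all genes, 12.7% higher and 7.77% lower. Without NC replicate 6, every HFD mouse was also below every NC mouse for Asns and Sesn2. For Asns the lowest NC value was then 25.8 FPKM and the highest HFD value 12.6, and for Sesn2 they were 20.9 and 16.6. The share of all genes without overlap was not counted without that library.

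**Figure D2:**
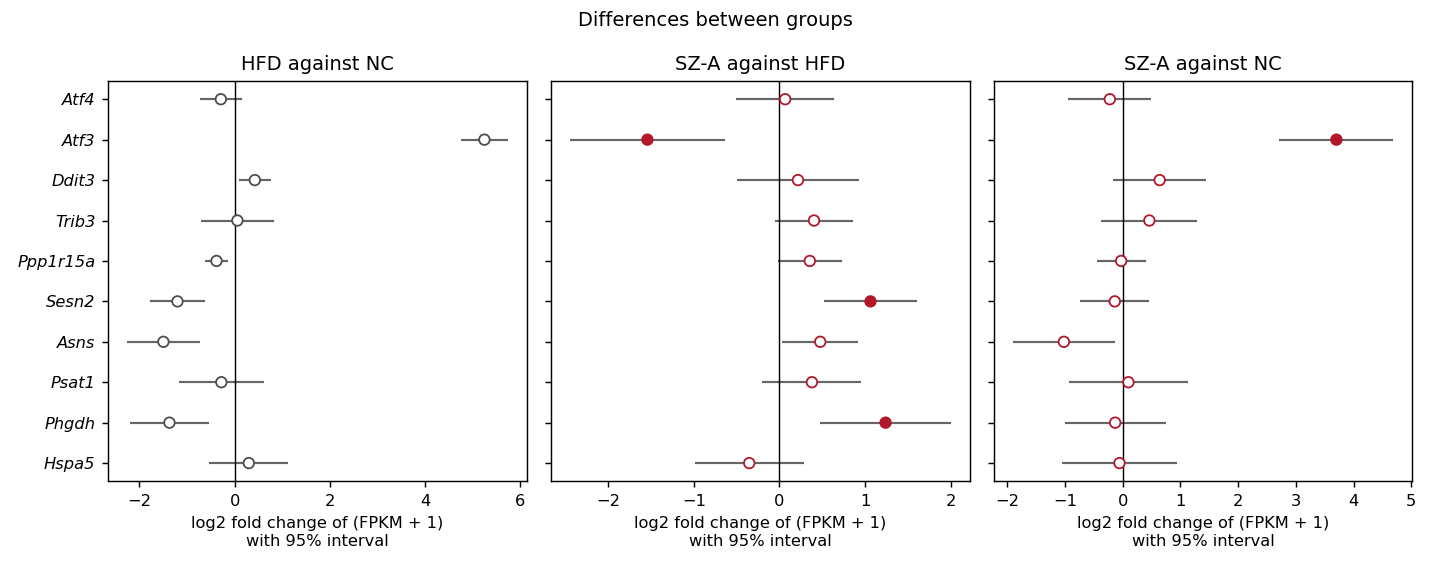
Log2 fold change of (FPKM + 1) with its 95% interval for each member in the 3 comparisons; filled points have an adjusted p under 0.05 from limma, and HFD against NC is drawn with open points as a description. Atf3 is at 5.24, -1.54 and 3.70, and Sesn2 and Phgdh are at 1.06 and 1.24 in SZ-A against HFD.

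SZ-A replicate 5 lay at opposite ends of its group for different members. It was the highest SZ-A mouse for 5 members (Atf4, Atf3, Ddit3, Ppp1r15a and Sesn2) and the lowest for 3 (Asns, Psat1 and Phgdh). NC replicate 6 was the highest NC mouse for 3 members (Atf4, Ddit3 and Hspa5) and the lowest for 5 (Trib3, Sesn2, Asns, Psat1 and Phgdh).

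Few pairs of members varied together in every group. Of the 45 pairs of members, 2 had a Pearson correlation above 0.5 in all 3 groups. Psat1 and Phgdh, neighbouring enzymes of serine synthesis, had r of 0.93 among NC, 0.95 among HFD and 0.85 among SZ-A mice, the last resting on SZ-A replicate 5 and 1 more mouse, since it was -0.55 over the 5 mice nearest the median of Psat1. Trib3 and Sesn2 had r of 0.84, 0.82 and 0.51. Without the 2 mice of each group farthest from the median of Trib3, r was 0.46, 0.53 and 0.50. NC replicate 6, the lowest NC mouse for both genes, was among those left out. In Spearman's rho, the Psat1 and Phgdh pair had 0.94, 0.89 and 0.43 and the Trib3 and Sesn2 pair 0.71, 0.68 and 0.57. Over the 135 relations, exact permutation tests gave an unadjusted p under 0.05 in 33, and 0 after Benjamini-Hochberg adjustment, with 0.080 the smallest adjusted value.

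Macrophage markers differed between the groups beside these genes, while few of the adipocyte markers did. The summed level of the 14 macrophage markers was 87.6 to 828 FPKM in the NC mice, 3545 to 9430 in the HFD mice and 1440 to 4773 in the SZ-A mice. All 14 were in the table. By limma 13 were lower in SZ-A mice relative to HFD and 11 were higher relative to NC. Adgre1, which encodes the macrophage protein F4/80, was at 0.615 to 10.6 FPKM in the NC mice, 140 to 258 in the HFD mice and 34.2 to 122 in the SZ-A mice. The 12 adipocyte markers summed to 506 to 22821 FPKM in the NC mice, 1465 to 6477 in the HFD mice and 4504 to 14830 in the SZ-A mice. NC replicate 6 had the lowest NC sum of both lists. Of the adipocyte markers, 2 were higher in SZ-A than in HFD, and 0 were past the limit in SZ-A against NC. In HFD against NC 1 of them was higher and 2 were lower. The deposited table holds only genes above 0 in every mouse, so no marker in it could be at 0. Relative to HFD, SZ-A mice also had 7 of 8 markers of lipid-associated macrophages and 6 of 6 fibroblast markers lower, 5 of 5 red cell markers and 1 of 5 smooth muscle markers higher, and 1 of 5 T cell and 0 of 5 endothelial markers lower. Neutrophil (2 of 5 markers in the table), B cell (2 of 4) and mesothelial (2 of 6) markers had 0 past the limit. The 1 epididymis marker of 12 in the table, Spint2, was higher. Of all genes, 9.47% were higher and 13.3% lower in SZ-A than in HFD. In SZ-A against NC the shares were 4.15% and 0.455%. Relative to NC, HFD mice had 3 of 5 smooth muscle, 1 of 5 red cell and 1 of 2 mesothelial markers lower. Spint2 was lower too, at 1.72 to 4.53 FPKM in the HFD mice and 5.10 to 239 in the NC mice. Markers of lipid-associated macrophages (8 of 8), fibroblasts (5 of 6) and neutrophils (2 of 2) were higher. In that comparison 21.0% of all genes were higher and 20.1% lower. The part of these cells in the member values was not tested.

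Within each group, each member was set against the mean log2(FPKM + 1) of the macrophage and of the adipocyte list, 60 relations in all, of which 23 had an adjusted p under 0.05 by exact permutation. Atf3 followed the macrophage score among the 7 HFD mice with r = 0.98 and rho = 1 (exact permutation p = 1.98e-04 and 3.97e-04, adjusted 0.0119 and 0.0238). Without the 2 mice farthest from the median of the score r was 0.99. Among the 7 SZ-A mice Atf3 had r = 0.98 and rho = 0.86 (exact permutation p = 0.0022 and 0.0238, adjusted 0.0185 and 0.0893), and r was 0.76 without the 2 farthest. Among the 6 NC mice r was 0.70 and rho 0.71 (exact permutation p = 0.16 and 0.14, adjusted 0.27 and 0.26).

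Phgdh ran the other way. Among HFD mice it had r = -0.95 and rho = -0.89 with the macrophage score (exact permutation p = 0.0012 and 0.0123, adjusted 0.0167 and 0.0738; r = -0.78 without the 2 farthest). With the adipocyte score it had r = 0.95 and rho = 0.96 (exact permutation p = 3.97e-04 and 0.0028, adjusted 0.0119 and 0.0278; r = 0.87 without the 2 farthest). In SZ-A mice its relation to the macrophage score, with r = -0.84 and rho = -0.57 (exact permutation p = 0.0123 and 0.20, adjusted 0.0335 and 0.33), rested on the 2 farthest mice, since r was -0.06 without them. Sesn2 had no common direction across groups. In HFD mice it had r = -0.88 and rho = -0.68 with the macrophage score (exact permutation p = 0.0075 and 0.11, adjusted 0.0292 and 0.24), and r was -0.48 without the 2 farthest. In NC mice it had r = 0.89 and rho = 0.83 (exact permutation p = 0.018 and 0.058, adjusted 0.047 and 0.175), and r was 0.20 without the 2 farthest. In SZ-A mice r was 0.44 and rho 0.43 (exact permutation p = 0.32 and 0.35, adjusted 0.46 and 0.51). Among SZ-A mice Ddit3 had r = 0.87 and rho = 0.75 with it (exact permutation p = 0.0081 and 0.066, adjusted 0.0292 and 0.19), and r was 0.29 without the 2 farthest.

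Of the 60 relations, 6 had an adjusted p under 0.05 in both r and rho, those of Atf3 with the macrophage score and of Phgdh with the adipocyte score in HFD mice among them. In HFD mice the macrophage and adipocyte scores ran in near reverse order, from replicate 1 (7.42 and 5.98) to replicate 6 (6.50 and 8.20). The relations of a gene to both scores in HFD mice are therefore not separate results. Atf3 in HFD mice had r = -0.90 and rho = -0.96 with the adipocyte score (exact permutation p = 9.92e-04 and 0.0028, adjusted 0.0167 and 0.0278; r = -0.92 without the 2 farthest). Atf4 in SZ-A mice had r = 0.84 and rho = 0.96 with the macrophage score (exact permutation p = 0.0026 and 0.0028, adjusted 0.0185 and 0.0278; r = 0.66 without the 2 farthest). Asns in NC mice had r = 0.99 and rho = 1 with it (exact permutation p = 0.0014 and 0.0028, adjusted 0.0167 and 0.0278; r = 0.96 without the 2 farthest), where HFD and SZ-A mice had r of -0.72 and -0.75 (exact permutation p = 0.066 and 0.053, adjusted 0.136 and 0.114). With the adipocyte score Asns in NC mice had r = 0.94 and rho = 0.94 (exact permutation p = 0.0097 and 0.0167, adjusted 0.029 and 0.077). There r was 0.97 without the 2 farthest. NC replicate 6 was the lowest NC mouse in both scores. Hspa5 in SZ-A mice had r = -0.97 and rho = -0.96 with the adipocyte score (exact permutation p = 0.0024 and 0.0028, adjusted 0.0185 and 0.0278; r = -0.93 without the 2 farthest).

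**Figure D3:**
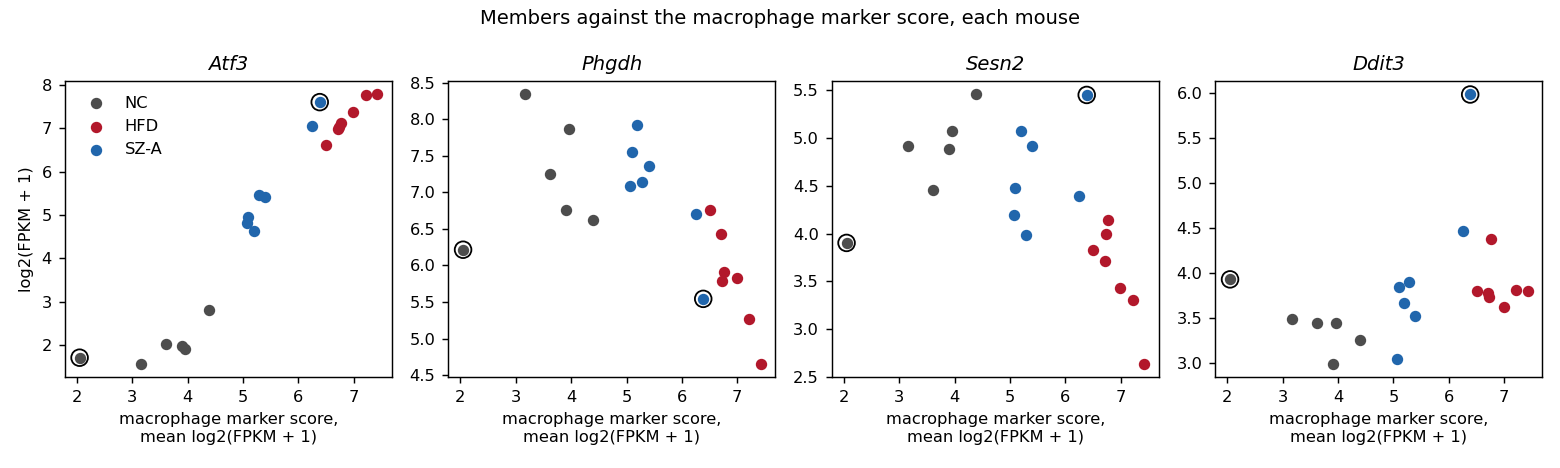
Log2(FPKM + 1) of Atf3, Phgdh, Sesn2 and Ddit3 against the mean log2(FPKM + 1) of 14 macrophage markers, 1 point per mouse, coloured by group, with NC replicate 6 and SZ-A replicate 5 circled. Atf3 follows the score within HFD and within SZ-A mice (r = 0.98 in each), while Phgdh falls along it within HFD mice (r = -0.95).

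The genes whose pattern was most like that of Atf3 were sought by correlation of log2(FPKM + 1), centred on each group mean, over the 20 mice among the 12450 genes whose mean reached 1 FPKM. The highest were Arl11 (r = 0.97), Ahnak2 (0.96), Cd200r4 (0.96), Cd300a (0.95) and Atp8b4 (0.95), and the lowest was Marc2 (-0.93). Cd200r4 and Cd300a encode receptors of myeloid cells. Of the members, Ddit3 had the highest r with Atf3, 0.69 at rank 730 of 12449, before Atf4 at 0.67 and Ppp1r15a at 0.64. For Ddit3 this came from the SZ-A mice, with r = 0.89 among them, 0.34 without the 2 mice farthest from the median of Atf3, -0.45 among NC and -0.13 among HFD mice. Atf4 had r = 0.87 among SZ-A mice, 0.61 among HFD and -0.19 among NC mice. Without the 2 mice farthest from the median of Atf4, not of Atf3, r was 0.83 among SZ-A and -0.41 among HFD mice. Phgdh had the lowest r over all mice, -0.72 at rank 12230, with -0.90 among SZ-A, -0.93 among HFD and -0.42 among NC mice. The points share their libraries, and the correlations are a description.

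Few other genes of the pathway passed the test with SZ-A. Among 21 genes for the eIF2 kinases, eIF2 and its exchange factor eIF2B, SZ-A mice had 0 higher and 1 lower than HFD mice. This was Eif2ak2, the kinase that senses double-stranded RNA, at 6.65 ± 0.640 FPKM (SD, n = 7) in the HFD mice and 4.85 ± 0.933 (SD, n = 7) in the SZ-A mice (log2 fold change -0.40, limma adjusted p = 0.021). Among 23 other targets of ATF4 and CHOP, 1 was higher, Stc2, which encodes the secreted glycoprotein stanniocalcin 2 (log2 fold change 0.90, limma adjusted p = 0.015), and 0 were lower. Over all genes 9.47% were higher and 13.3% lower. The median log2 fold change was -0.15 for the first list and 0.16 for the second, where it was 0.03 over all genes.

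Among 14 further enzymes of serine, glycine, proline and one-carbon metabolism, 0 were higher and 2 lower in SZ-A than in HFD. These were Aldh18a1, which starts proline synthesis (-0.55, limma adjusted p = 0.0070), and the low-level Aldh1l2 (-0.18, limma adjusted p = 0.026), both opposite to Phgdh. Among 20 cytosolic aminoacyl-tRNA synthetases 2 were lower, Iars (-0.50) and Rars (-0.40), with adjusted p of 0.015 and 0.046 from limma. Among 26 chaperones and unfolded protein response genes 3 were lower, the degradation factor Edem1 (-0.46), the stress sensor Atf6 (-0.50) and Sel1l (-0.36), with adjusted p of 0.0086, 0.017 and 0.022 from limma. None of these 3 lists had a gene that was higher. With 9.47% of all genes higher and 13.3% lower, the counts of lower genes are near the background and are no result about the lists.

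Among 24 AP-1 and immediate early genes, whose AP-1 products are partners of ATF3, SZ-A mice had 1 higher and 3 lower than HFD mice. The shares over all genes were 9.47% and 13.3%. Ier3 was higher (0.90, limma adjusted p = 0.0021). Egr3 (-0.64), Klf6 (-0.50) and Fos (-0.73) were lower, with adjusted p of 0.0062, 0.012 and 0.034 from limma. Fos was at 8.63 ± 6.94 FPKM (SD, n = 6) in the NC mice, 64.2 ± 10.6 (SD, n = 7) in the HFD mice and 41.0 ± 18.8 (SD, n = 7) in the SZ-A mice. In HFD against NC 9 genes of this list were higher and 1 lower, where 21.0% and 20.1% of all genes were.

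Among 13 relatives of the members, Sesn1 was lower in SZ-A than in HFD (-0.72, limma adjusted p = 0.0012), with no overlap between the groups, so it moved against Sesn2. Its mean was 18.2 ± 6.45 FPKM (SD, n = 6) in the NC mice, 27.8 ± 4.98 (SD, n = 7) in the HFD mice and 16.3 ± 2.03 (SD, n = 7) in the SZ-A mice. Trib2 was higher (0.57, limma adjusted p = 0.0072) and Atf6, which stands in this list too, was lower. Among 8 mitochondrial stress genes Clpp, the subunit of a matrix protease, was higher (0.91, limma adjusted p = 0.0013), without overlap. Of all genes, 9.47% were higher and 13.3% lower in SZ-A than in HFD. Without overlap between these groups, 2.07% were higher and 4.01% lower.

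**Figure D4:**
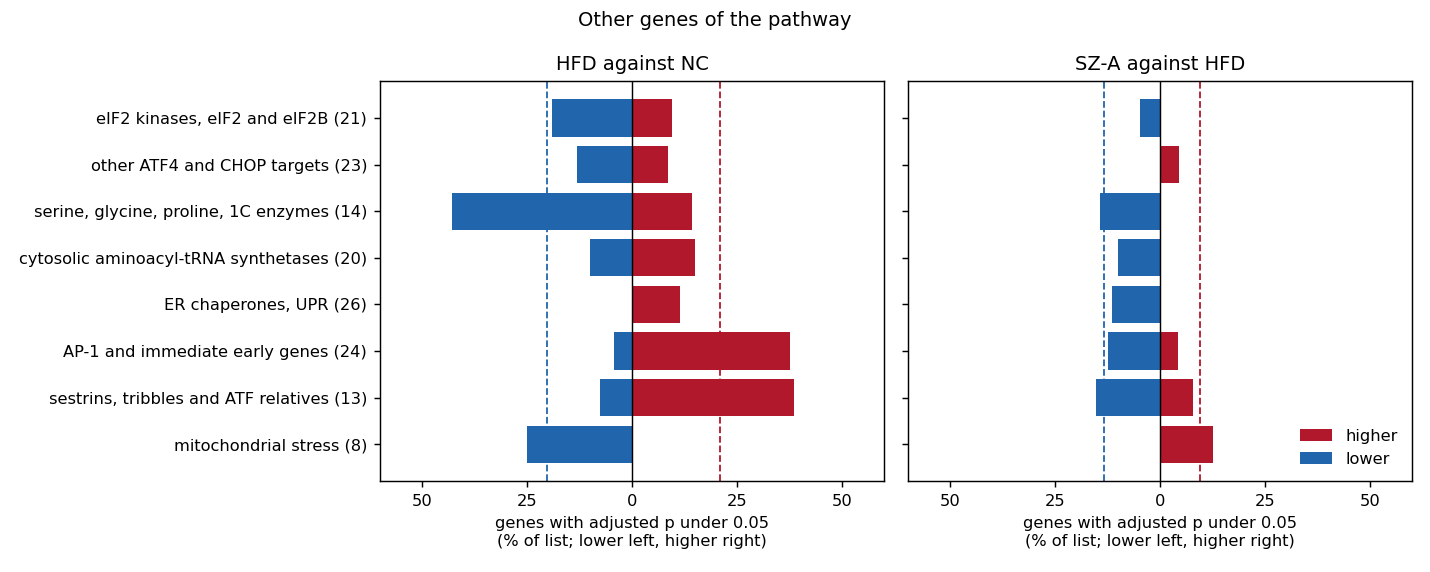
Share of each list with an adjusted p under 0.05 from limma, higher to the right and lower to the left, for HFD against NC and SZ-A against HFD; the number of genes tested stands in brackets and dashed lines give the share over all genes. In SZ-A against HFD each list has at most 3 genes in either direction, and in HFD against NC the AP-1 and immediate early list has 9 of 24 higher.

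Against NC, the SZ-A mice had 2 genes of these lists past the limit, both higher, where 4.15% of all genes were higher. They were Edem1 (log2 fold change 0.80, limma adjusted p = 0.020) and Fos (2.33, limma adjusted p = 0.0083). In HFD against NC, where 21.0% of all genes were higher and 20.1% lower, 6 of the 14 amino acid and one-carbon enzymes were lower and 2 higher, and 3 of the 26 chaperones were higher and 0 lower. The eIF2 list had 2 higher and 4 lower, and the other ATF4 and CHOP targets 2 higher and 3 lower. The synthetases had 3 higher and 2 lower, the relatives of the members 5 higher and 1 lower, and the mitochondrial stress genes 0 higher and 2 lower.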

How the data were processed

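Messenger RNA of 20 eWAT samples was sequenced as paired-end reads. Alignment was to GRCm38 with HISAT2, and the authors deposited FPKM per gene. The submitters' processing notes name featureCounts 1.5.0-p3. The filter that left 14776 genes, each above 0 in all mice, is not given in the sources used here. The labels give 6 NC mice, where the paper's results text gives 7 per group. Reads were recovered from FPKM and exon lengths of GENCODE M21, and 95.9% to 96.3% of values under 1000 reads came out whole within 0.01 reads. They gave the depth, the read support of a value and the mitochondrial share of reads, and were tested only with voom. Because the values were deposited as FPKM, no count test was the main test.

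Pairs of groups were compared on log2(FPKM + 1) by limma 3.58.1 (R 4.3.3) with a variance trend. Genes entered where the mean over both groups reached 0.1 FPKM, and p-values were adjusted over all of them after Benjamini and Hochberg. A fold change on this scale understates the change of low genes. On simulated data of 14695 genes for SZ-A against HFD, 193 of 200 genes changed by a log2 fold change of 2 were recovered, with 8 false calls. The changed genes were drawn from those with a mean log2(FPKM + 1) above 2, and values were normal, with no outlying library. The largest change of a member in this comparison was -1.54 (Atf3), so the rate does not tell how often changes of the members' size are found. Exact permutation tests of single members were two-sided and are given unadjusted. Tables used Python 3.11.15, pandas 2.3.3, NumPy 2.4.6 and SciPy 1.17.1, and figures matplotlib 3.10.9.

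The members and lists were chosen with earlier results of these data known. Genes named are the members, of each other list up to 4 genes with the smallest adjusted p under 0.05 in SZ-A against HFD, the 5 most and 1 least like Atf3, and defining cell markers. Lists overlap in a few genes. Of the lists, Slc7a3 and Sds were not in the table used. Samples of a group are separate mice by the labels, and no batch or date is given. The comparisons were repeated with a pseudocount of 0.1 or 0.01, without the filter, with a filter at 1 FPKM, and with median-ratio scaling, quantile normalization, a joint fit of the 3 groups, robust variance, array quality weights, a replicate block, voom or each mouse left out.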

Additional observations from a re-analysis of the deposited data

Results flagged for a closer look

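Of 30 sets of values, 1 for each member in each group, 4 had a mouse at one end whose gap to the next mouse was too large for Dixon's test at the 95% level, where chance gives about 1 in 20. Atf3 in NC replicate 3 was at 6.01 FPKM, with the next NC mouse at 3.08. This mouse also had the highest macrophage marker sum of the NC group, 828 FPKM. Ddit3 in HFD replicate 2 was at 19.7 FPKM, with the next HFD mouse at 12.99. Trib3 in SZ-A replicate 2 was at 2.91 FPKM, with the next SZ-A mouse at 6.90. Psat1 in SZ-A replicate 5 was at 11.8 FPKM, with the next SZ-A mouse at 28.3, and that library had 11.6% of its reads on mitochondrial genes. The causes were not tested.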

How the results depend on the processing

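Of the members' log2 fold changes under the alternatives that do not leave out each mouse in turn, 317 kept their side of the limit, 6 gained and 7 lost a call, and where 1 mouse was left out the numbers were 382, 6 and 12. No call reversed its direction. Of 10 members, 3 passed in SZ-A against HFD, 1 with the added fold limit of 1.5 and 8 with array quality weights (all but Atf4 and Ddit3), and leaving out 1 mouse gave 2 to 5. SZ-A against NC gave 1, 2 with array quality weights, and 1 to 2 when a mouse was left out. HFD against NC gave 6, 1 with the added fold limit, 4 with all 3 groups in the fit, and 5 to 6 when a mouse was left out. Over all genes, leaving out a mouse called 2352 to 4296 in SZ-A against HFD and 423 to 860 in SZ-A against NC. In HFD against NC it called 5237 to 6645.

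Equal replicate numbers did not pair the mice: correlations of their deviations ran from -0.41 to 0.58, with 2 of 6, 3 of 7 and 2 of 6 pairs above 0.1. With the replicate number as a block the counts were 3 for SZ-A against HFD, 1 for SZ-A against NC and 3 for HFD against NC. NC has no replicate 7, so the block also left out that replicate of SZ-A or HFD in the NC comparisons. Without HFD replicate 7 and with no block HFD against NC gave 5. Over all genes the block called 2619 in SZ-A against HFD and 4423 in HFD against NC. Leaving out HFD replicate 7 with no block called 5406 in the latter.

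Over all genes, array quality weights called 6403 in place of 3349 in SZ-A against HFD and 2639 in place of 678 in SZ-A against NC, and all 3 groups in the fit 2089 and 1527. The block called 173 in SZ-A against NC, where leaving out SZ-A replicate 7 with no block called 620. Voom moved the median log2 fold change of all genes in HFD against NC from -0.04 to -0.15. Trib3, Atf4, Ddit3 and other members near 0 changed sign under some alternatives without passing the limit. At 23 reads, Trib3 in NC replicate 6 was the value with the fewest reads.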
